A study of Mus musculus with 9 samples.

Results

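The lysosomal genes described here are 31 genes for enzymes that break down lipids, sugars and proteins inside lysosomes, for proteins of the lysosomal membrane, and for 2 regulators. They were taken by gene symbol, out of 18193 genes measured, and each is represented by the probe set (a group of short probes against 1 transcript) with the highest mean over all 9 arrays. All 31 had such a probe set, 9 of them with 1 and 22 with several to choose from. The question put to them was whether their levels differed between T2M cells (type 2 myeloid cells) and the eosinophils, neutrophils and macrophages sorted beside them from inflamed lung.

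Every array held RNA of cells from female 4get mice on the BALB/c background, 6 to 8 weeks old, whose Il4 gene carries a green fluorescent reporter. All mice had been given 0.5 µg of recombinant IL-25 in 50 µL into the trachea each day for 4 days, so no array comes from an untreated lung. CD11b-positive cells from digested lungs were sorted on the reporter, the IL-5 receptor alpha chain, the macrophage antigen encoded by Adgre1, MHC class II and Gr-1. T2M cells (3 arrays) had the reporter and the Adgre1 antigen, lacked the receptor chain, had an intermediate Gr-1 level and were low in MHC class II. Eosinophils (2 arrays) lacked the reporter and the Adgre1 antigen, had the receptor chain, and were low in MHC class II and high in Gr-1. Neutrophils (2 arrays) lacked the reporter, the receptor chain and the Adgre1 antigen, were low in MHC class II and had Gr-1. Macrophages (2 arrays) had the Adgre1 antigen and MHC class II and lacked the reporter, the receptor chain and Gr-1. Each array is a pool of cells from 4 donor mice, with 400000 sorted cells and 50 ng of amplified RNA, so replicates differ as pools do and single mice were not measured. In such bulk samples, fewer cells of a type and less RNA per cell cannot be told apart.

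Lysosomes are acidic compartments in which macromolecules taken up by phagocytosis or delivered by autophagy are cut into their building blocks. Their hydrolases remove sugars, sulfates, lipids and peptides in a fixed order, and loss of 1 enzyme lets its substrate accumulate, as in the lysosomal storage diseases. Phagocytes of the lung rely on this system to digest microbes, dead cells and surfactant, and many of its genes carry a short promoter sequence, CACGTG, that the transcription factor TFEB and its relatives can bind.

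Several arrays stood apart from the rest or went against their labels, so populations are named here by the labels of their arrays. Over all genes the macrophage arrays correlated at 0.995, whereas the other replicate pairs correlated at 0.922 to 0.974. Whether these arrays hold separate pools or the same RNA was not tested. They were counted as 2, as labelled, and with their mean as 1 array the T2M calls against them number 1 in place of 7 and the eosinophil calls 2 in place of 8. Neutrophil array 2 correlated at 0.952 with both macrophage arrays and at 0.922 with neutrophil array 1. The mean log2 level of 9 neutrophil markers was 11.62 and 12.25 on the eosinophil arrays and 9.25 and 8.22 on the neutrophil arrays. Eosinophil markers (8 genes) averaged 9.35 to 9.73 on the T2M arrays and 7.09 and 6.06 on the eosinophil arrays, and Il5ra, the gene of the receptor chain behind 2 gates, stood at 7.18 to 8.05 on T2M arrays and at 5.77 and 4.60 on eosinophil arrays. The 9 macrophage markers averaged 8.45 and 8.17 on the macrophage arrays, below every other array, and were highest on the neutrophil arrays at 10.3 and 10.68. H2-Eb1, an MHC class II gene, stood at 11.87 and 12.87 on the neutrophil arrays, which were gated as low in that antigen, and at 9.95 to 11.93 on T2M arrays. It was highest on the macrophage arrays, at 13.08 and 13.03. Other gate genes went with the T2M label: Il4 stood at 7.69 to 9.80 on T2M arrays and 4.67 to 6.43 on the others. Adgre1 stood at 9.95 to 10.91 on T2M arrays and 8.59 to 9.86 on the others. Its level on neutrophil arrays, gated as lacking that antigen, was near that on macrophage arrays. The 6 dendritic cell markers averaged 9.42 and 9.10 on macrophage arrays, above every other array. For the actin control probe sets, the 3′ minus 5′ log2 difference, a measure of RNA quality, was 0.61 on T2M array 1 and 0.535 on eosinophil array 1, against -0.101 to 0.0343 on the others. The same difference for the Gapdh control was 2.35 to 3.43 on T2M arrays and 1.02 and 1.2 on macrophage arrays. It was 2.41 and 1.09 on eosinophil arrays 1 and 2, and 2.2 and 1.45 on neutrophil arrays 1 and 2. The part of these markers and controls in the results below was not tested.

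Of the 31 lysosomal genes, 13 differed between at least 1 pair of labels in limma's moderated test at a Benjamini-Hochberg adjusted p under 0.05, and 18 did not. That is 41.9%, against 26.8% of all genes. All genes include dim ones, and genes of like level were not taken as the background here or below. Between T2M and macrophage arrays, 2 genes were called higher (Neu1 and Gla; 6.53% of all genes were) and 5 were called lower (Arsb, Tfeb, Idua, Gm2a and Ppt1; 10.6% of all genes were). Between T2M and eosinophil arrays, 1 gene was lower (Ppt1, background 2.89%) and 0 were higher (background 1.57%). At an unadjusted p under 0.05, 4 of the 31 were higher, as were 1535 of all 18193 genes. Between T2M and neutrophil arrays, 1 gene was higher (Neu1, background 1.25%) and 0 were lower (background 1.57%). At an unadjusted p under 0.05, 7 of the 31 were lower, as were 1868 of all 18193 genes. The shares of the 31 genes called, 6.45% higher and 16.1% lower against macrophage arrays and at most 3.23% in either direction in the other comparisons with T2M, were of the same order as these backgrounds.

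Among the other labels, eosinophil arrays differed most from macrophage arrays. There, 3 genes were higher (Neu1, Gla and Lamp2, background 5.89%) and 5 were lower (Hexa, Arsb, Gusb, Glb1 and Lamp1, background 11.5%). Between eosinophil and neutrophil arrays, 2 were higher (Neu1 and Cln3, background 3.55%) and 3 lower (Hexa, Glb1 and Lamp1, background 4.33%). Between neutrophil and macrophage arrays, 1 was higher (Gla, background 1.13%) and 0 were lower (background 1.13%). At an unadjusted p under 0.05, 4 of the 31 were lower, as were 1582 of all 18193 genes. A limma F test over the 4 labels called 8 of the 31 genes (Lamp1, Hexa, Gla, Glb1, Neu1, Arsb, Idua and Ppt1), or 25.8%, against 17.8% of all genes.

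**Figure D1:**
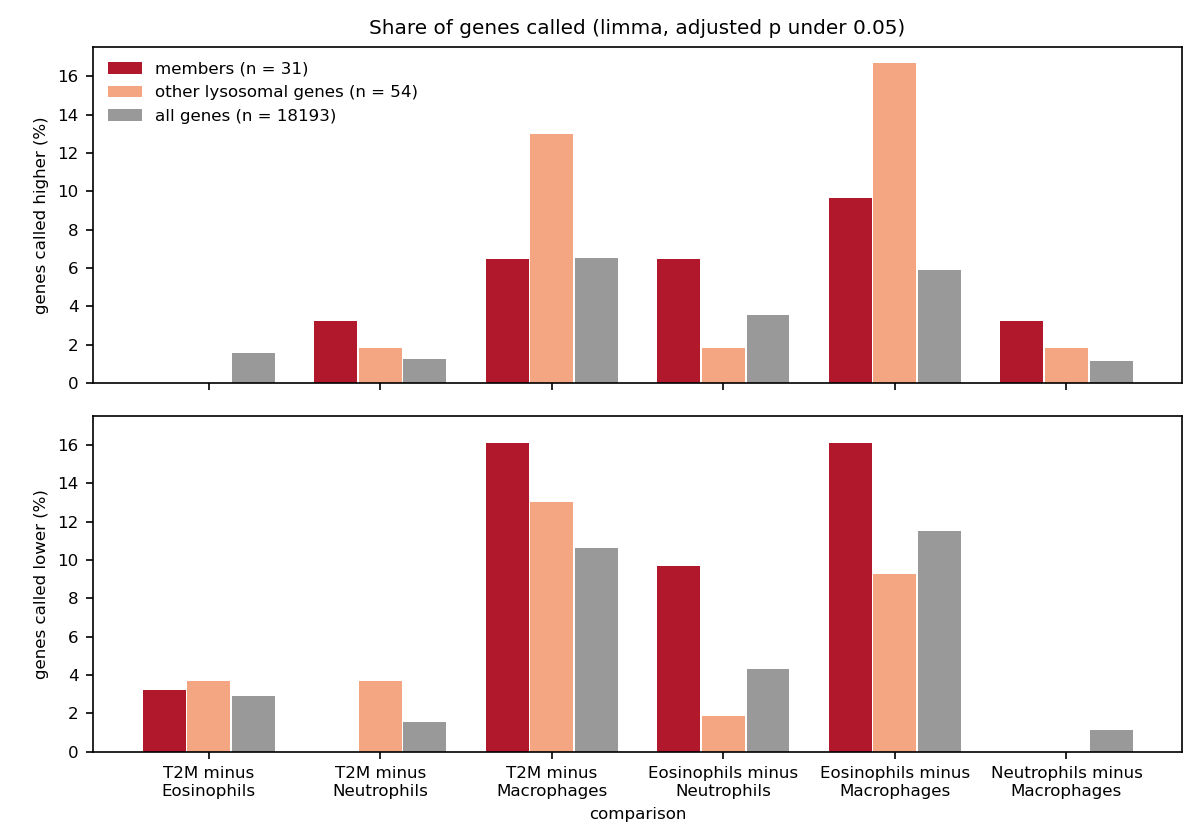
Share of genes called higher (top) and lower (bottom) by limma in each comparison of labels, for the 31 lysosomal genes, 54 other lysosomal genes and all 18193 genes. In T2M minus Macrophages, 16.1% of the 31 genes were called lower, against 10.6% of all genes, and in T2M minus Eosinophils no bar of the 31 genes stands in the upper panel.

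The 31 genes lay on both sides of 0 in each comparison. Those below 0 numbered 18 for T2M minus eosinophil (7886 of all 18193 genes), 23 for T2M minus neutrophil (9651) and 20 for T2M minus macrophage arrays (7650). They numbered 22 for eosinophil minus neutrophil (10174), 21 for eosinophil minus macrophage (7500) and 16 for neutrophil minus macrophage arrays (7301). With quantile normalisation, 16 were above 0 for T2M minus eosinophil and 17 for neutrophil minus macrophage arrays. The median log2 difference was -0.46 for T2M minus macrophage arrays, with 20 of 31 genes below 0, where the median of all genes was 0.18. It was -0.62 for T2M minus neutrophil arrays (all genes -0.03) and -0.14 for T2M minus eosinophil arrays (all genes 0.06). For eosinophil arrays it was -0.52 against neutrophil arrays (all genes -0.07) and -0.67 against macrophage arrays (all genes 0.18), and for neutrophil minus macrophage arrays it was -0.02 (all genes 0.17). With quantile normalisation the medians for T2M minus macrophage and T2M minus eosinophil arrays became -0.12 and 0.04, and the T2M calls against macrophage arrays were 4 higher and 3 lower in place of 2 and 5. Eosinophil minus macrophage arrays then also had 4 higher and 3 lower with a median of -0.21, the median for neutrophil minus macrophage arrays was 0.02, and a common array median gave 3 higher and 2 lower for eosinophil minus neutrophil arrays. The mean was highest on the T2M arrays for 4 genes (12.9%, against 25.2% of all genes), on the eosinophil arrays for 6 (19.4%, against 23.8%), on the neutrophil arrays for 9 (29.0%, against 22.6%) and on the macrophage arrays for 12 (38.7%, against 28.4%). It was lowest on the T2M arrays for 11 genes (35.5%, against 16.0% of all genes), on the eosinophil arrays for 12 (38.7%, against 25.1%), on the neutrophil arrays for 2 (6.45%, against 12%) and on the macrophage arrays for 6 (19.4%, against 46.9%).

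**Figure D2:**
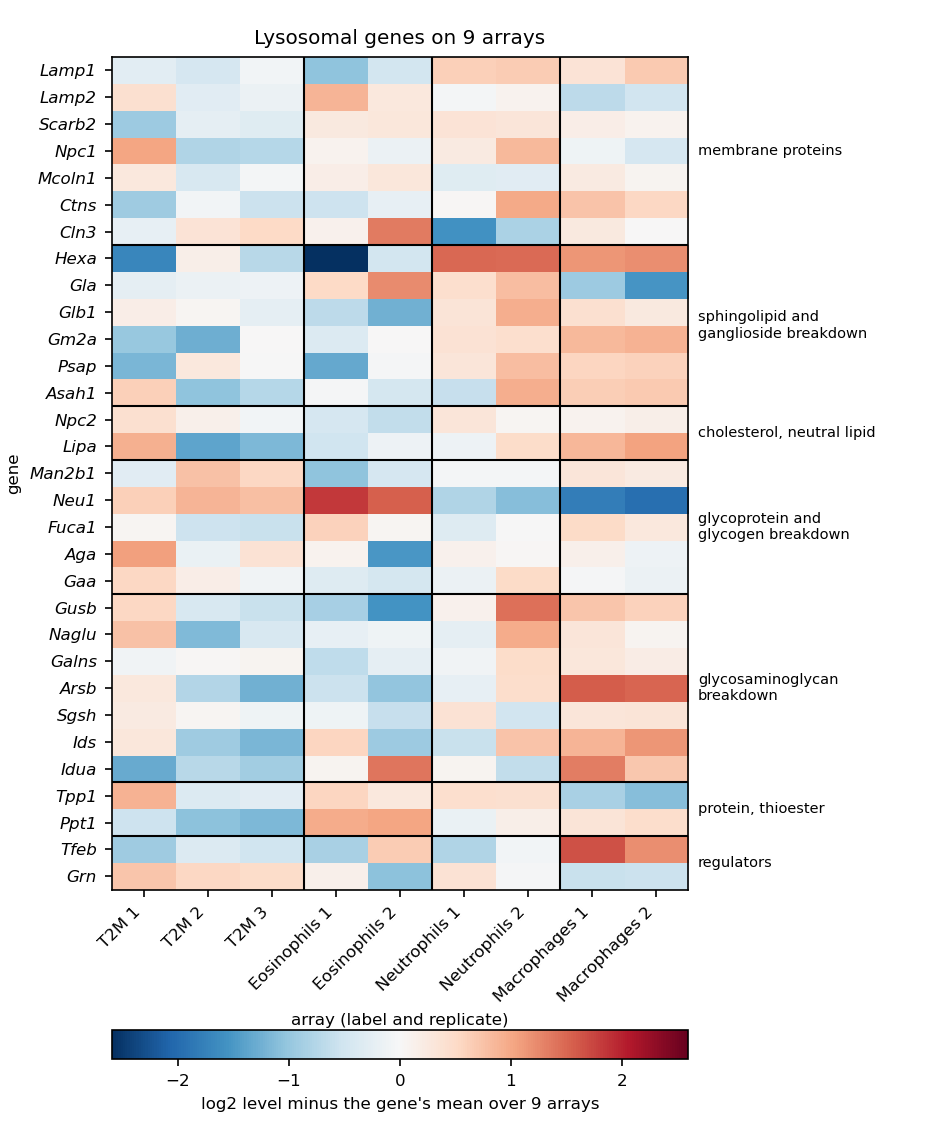
Log2 level of each of the 31 lysosomal genes (rows, grouped by role) on each of the 9 arrays (columns), as the difference from the gene's mean over the 9 arrays. Neu1 runs from above its mean on T2M and eosinophil arrays to below it on neutrophil and macrophage arrays, and Hexa lies below its mean on both eosinophil arrays and 2 of 3 T2M arrays and above it on neutrophil and macrophage arrays.

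Neu1, Gla, Lamp1 and Glb1 showed how different the promoters of such genes can be, and their windows are printed to show where the CACGTG motif (the same on both strands) stands. The windows run from 250 bases before to 50 bases after the annotated start in RefSeq (GRCm38.p6), 5′ to 3′ on the gene's strand, with CACGTG in capitals. They lie at chr17:34931003-34931302 on the plus strand for Neu1, chrX:134600956-134601255 on the minus strand for Gla, chr8:13158911-13159210 on the plus strand for Lamp1 and chr9:114400828-114401127 on the plus strand for Glb1.
Neu1: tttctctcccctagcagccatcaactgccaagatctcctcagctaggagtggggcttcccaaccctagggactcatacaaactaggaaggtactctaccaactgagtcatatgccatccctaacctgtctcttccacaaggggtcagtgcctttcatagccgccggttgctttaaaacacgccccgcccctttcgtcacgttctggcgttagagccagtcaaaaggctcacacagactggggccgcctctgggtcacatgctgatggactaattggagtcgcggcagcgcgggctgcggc
Gla: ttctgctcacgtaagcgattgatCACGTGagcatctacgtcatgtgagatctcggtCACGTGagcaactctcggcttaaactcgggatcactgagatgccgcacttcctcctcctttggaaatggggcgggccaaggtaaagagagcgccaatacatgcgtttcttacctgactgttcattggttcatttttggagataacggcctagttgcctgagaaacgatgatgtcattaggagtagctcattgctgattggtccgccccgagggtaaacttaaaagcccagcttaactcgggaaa
Lamp1: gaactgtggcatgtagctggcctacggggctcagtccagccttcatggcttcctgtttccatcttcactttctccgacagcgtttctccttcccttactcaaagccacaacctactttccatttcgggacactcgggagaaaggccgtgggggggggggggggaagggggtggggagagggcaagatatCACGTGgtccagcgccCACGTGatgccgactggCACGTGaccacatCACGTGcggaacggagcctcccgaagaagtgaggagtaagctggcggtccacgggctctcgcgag
Glb1: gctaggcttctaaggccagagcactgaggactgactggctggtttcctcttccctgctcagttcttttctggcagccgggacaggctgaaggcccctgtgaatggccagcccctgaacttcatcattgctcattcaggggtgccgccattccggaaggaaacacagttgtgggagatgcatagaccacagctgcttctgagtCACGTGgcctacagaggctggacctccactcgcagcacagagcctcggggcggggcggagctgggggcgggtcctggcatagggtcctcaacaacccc
The Lamp1 window held 4 copies, Gla 2, Glb1 1 and Neu1 0. Of 27 lysosomal genes with a window, 8 held the motif (29.6%), against 8.09% of 27025 genes and 7.15% of 32851 windows. The 4 copies of Lamp1, at 61, 45, 28 and 15 bases before the start, are a number that 6 genes (0.0222%) reached. The motif was in 4 of the 13 genes called in at least 1 comparison (Cln3, Gla, Glb1 and Lamp1) and in 4 of 14 others (Gaa, Mcoln1, Naglu and Sgsh). The other 4 genes are Galns, Aga, Npc1 and Asah1.

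Of the enzymes that take sugars from glycoproteins and glycogen, Neu1 was the 1 of 5 called in at least 1 comparison, where 26.8% of all genes were. Neu1 encodes the lysosomal sialidase, which removes terminal sialic acid. Its log2 level was 8.83, 9.11 and 9.0 on T2M arrays, 10.05 and 9.77 on eosinophil arrays, 7.44 and 7.12 on neutrophil arrays, and 6.42 and 6.26 on macrophage arrays. The 4 labels did not overlap. It was 2.64 ± 0.22 (SE) higher on T2M than on macrophage arrays, a 6.23-fold difference (adjusted p = 0.000424), and 1.70 ± 0.22 higher on T2M than on neutrophil arrays (adjusted p = 0.0117, limma). On eosinophil arrays it was 3.57 ± 0.24 higher than on macrophage arrays (adjusted p = 0.000154) and 2.63 ± 0.24 higher than on neutrophil arrays (adjusted p = 0.00138). The differences of -0.93 for T2M minus eosinophil arrays (adjusted p = 0.0566) and 0.94 for neutrophil minus macrophage arrays (adjusted p = 0.105) did not pass. The call against neutrophil arrays ended without T2M array 3 (adjusted p = 0.0512), and the other 3 calls held whichever array was left out.

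The other 4 enzymes of this group were not called in any comparison, and 10 of 30 tests of the group, those of Neu1 included, had an unadjusted p under 0.05. In a single comparison, 2955 to 6627 of all 18193 genes had such a p. Man2b1, the acid alpha-mannosidase, averaged 11.83 on T2M, 10.75 on eosinophil, 11.44 on neutrophil and 11.76 on macrophage arrays. Fuca1, the alpha-fucosidase, averaged 9.99, 10.68, 10.18 and 10.73 in the same order of labels. Aga, which cuts the link between sugar and asparagine, averaged 9.27, 8.13, 8.92 and 8.84. Gaa, the acid alpha-glucosidase that digests glycogen, averaged 8.11, 7.52, 8.07 and 7.82. The means of these 4 genes lay closer together than those of Neu1.

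Sphingolipid and ganglioside breakdown was covered by 6 genes, of which Gla, Hexa, Gm2a and Glb1 were called in at least 1 comparison, where 26.8% of all genes were. Gla encodes alpha-galactosidase A, which trims globosides. It stood at 9.06, 9.14 and 9.16 on T2M arrays, 9.81 and 10.52 on eosinophil arrays, 9.74 and 10.11 on neutrophil arrays, and 8.36 and 7.77 on macrophage arrays. The macrophage arrays were the lowest, and the eosinophil and neutrophil arrays overlapped. Gla was 2.10 ± 0.32 (SE) higher on eosinophil than on macrophage arrays (adjusted p = 0.00384), a call that held whichever array was left out. It was 1.86 ± 0.32 higher on neutrophil arrays (adjusted p = 0.0246) and 1.06 ± 0.29 higher on T2M arrays (adjusted p = 0.0426) than on macrophage arrays. The T2M call ended without any 1 of the 3 T2M arrays (adjusted p = 0.0637, 0.0995 and 0.104 for arrays 1, 2 and 3) or either macrophage array (0.124 and 0.283). The neutrophil call ended without T2M array 2 or 3, neutrophil array 1 or either macrophage array (adjusted p = 0.0505, 0.0523, 0.0542, 0.0969 and 0.252).

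Hexa and Gm2a act on the same lipid: Hexa encodes the alpha subunit of beta-hexosaminidase A, and Gm2a the activator that presents GM2 ganglioside to it. Hexa stood at 9.30, 11.16 and 10.28 on T2M arrays, 8.40 and 10.52 on eosinophil arrays, 12.49 and 12.47 on neutrophil arrays, and 12.15 and 12.21 on macrophage arrays. All T2M and eosinophil arrays lay below all neutrophil and macrophage arrays. The macrophage markers were highest on the neutrophil arrays and lowest on the macrophage arrays, and their part in these levels was not tested. The difference was -3.02 ± 0.72 (SE) for eosinophil minus neutrophil arrays (adjusted p = 0.0416) and -2.72 ± 0.72 for eosinophil minus macrophage arrays (adjusted p = 0.0363). For T2M minus neutrophil and macrophage arrays it was -2.24 and -1.93 (adjusted p = 0.0786 for macrophage arrays), and neither passed. The eosinophil arrays spread by an SD of 1.50, the widest of the 31 genes. Without eosinophil array 1 the differences were -1.96 (adjusted p = 0.159) and -1.66 (adjusted p = 0.156). The first call also ended without T2M array 3, either neutrophil array or either macrophage array (adjusted p = 0.067 to 0.109), and the second without T2M array 3 or either macrophage array (0.0565 to 0.17).

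Gm2a stood at 10.83, 10.56 and 11.83 on T2M arrays, 11.47 and 11.84 on eosinophil arrays, 12.20 and 12.26 on neutrophil arrays, and 12.67 and 12.73 on macrophage arrays. The macrophage arrays were above all others, and T2M and eosinophil arrays overlapped. Gm2a was lower on T2M than on macrophage arrays, with a difference of -1.63 ± 0.37 (SE, adjusted p = 0.0211). That call ended without T2M array 2 (adjusted p = 0.0543) or either macrophage array (0.157 and 0.141).

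Glb1 encodes beta-galactosidase, which in the lysosome forms a complex with the sialidase Neu1 and cathepsin A. It stood at 7.52, 7.41 and 7.12 on T2M arrays, 6.66 and 6.11 on eosinophil arrays, 7.69 and 8.29 on neutrophil arrays, and 7.76 and 7.59 on macrophage arrays. The eosinophil arrays were the lowest. The difference was -1.61 ± 0.31 (SE) for eosinophil minus neutrophil arrays (adjusted p = 0.0194) and -1.29 ± 0.31 for eosinophil minus macrophage arrays (adjusted p = 0.0242). The first call ended without eosinophil array 2 (adjusted p = 0.103) or neutrophil array 2 (0.0525), and the second without eosinophil array 2 (0.131) or either macrophage array (0.171 and 0.113). Ctsa, the gene of cathepsin A, averaged 9.59 on T2M and 9.52 on eosinophil arrays, against 11.36 on macrophage arrays. Its differences from macrophage arrays were -1.77 for T2M (adjusted p = 0.0262) and -1.84 for eosinophil arrays (adjusted p = 0.0296), and both calls ended without either macrophage array (adjusted p = 0.139 to 0.179). The T2M call also ended without T2M array 3 (adjusted p = 0.0576), and the eosinophil call without either eosinophil array (0.141 and 0.0516). Against macrophage arrays, eosinophil arrays were therefore higher for Neu1 and lower for Glb1 and Ctsa. Psap, the precursor of the saposins that help these enzymes, averaged 11.92, 11.55, 12.78 and 12.81 on T2M, eosinophil, neutrophil and macrophage arrays. Asah1, the acid ceramidase, averaged 9.53, 9.68, 10.10 and 10.58. Neither passed in any comparison.

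The 2 genes of cholesterol and neutral lipid handling had 0 calls in limma, and 4 of 12 tests at an unadjusted p under 0.05. In a single comparison, 2955 to 6627 of all 18193 genes had such a p. Npc2 encodes the soluble carrier that hands cholesterol to the membrane protein of the Npc1 gene, and it averaged 12.55 on T2M, 11.86 on eosinophil, 12.57 on neutrophil and 12.51 on macrophage arrays. Lipa encodes lysosomal acid lipase and stood at 10.76, 8.45 and 8.67 on T2M arrays. Its SD of 1.27 was the widest among T2M arrays, and the mean of 9.29 there differed from the 10.78 of the macrophage arrays by -1.49, which did not pass.

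Glycosaminoglycan breakdown was covered by 7 genes, of which Arsb, Idua and Gusb were called in at least 1 comparison, where 26.8% of all genes were. All 7 had a mean below that of the macrophage arrays on both T2M and eosinophil arrays. With quantile normalisation this held for 5 of 7 in each comparison. In the table as deposited, 7650 of all 18193 genes had a lower mean on T2M than on macrophage arrays. For eosinophil against macrophage arrays the number was 7500. Arsb encodes a sulfatase acting on dermatan sulfate. It stood at 9.56, 8.53 and 8.04 on T2M arrays, 8.72 and 8.26 on eosinophil arrays, 9.07 and 9.75 on neutrophil arrays, and 10.86 and 10.80 on macrophage arrays. The macrophage arrays were at least 1 unit above every other array. The difference from macrophage arrays was -2.12 ± 0.44 (SE) for T2M (adjusted p = 0.0154) and -2.34 ± 0.48 for eosinophil arrays (adjusted p = 0.0129). Both calls ended without macrophage array 1 or 2 (adjusted p = 0.137 and 0.107 for T2M, 0.0952 and 0.0794 for eosinophil arrays), and the eosinophil call also without eosinophil array 2 (0.0737).

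Idua encodes alpha-L-iduronidase, which removes iduronic acid from dermatan and heparan sulfate. It stood at 6.05, 6.64 and 6.44 on T2M arrays, 7.43 and 8.73 on eosinophil arrays, 7.43 and 6.72 on neutrophil arrays, and 8.67 and 8.05 on macrophage arrays. The T2M arrays were below all others. The difference was -1.99 ± 0.43 (SE) for T2M minus macrophage arrays (adjusted p = 0.0186), a call that ended without either macrophage array (0.184 and 0.079). For T2M minus eosinophil arrays it was -1.70, which did not pass (adjusted p = 0.0671).

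Gusb encodes beta-glucuronidase. It stood at 7.84, 6.89 and 6.71 on T2M arrays, 6.43 and 5.75 on eosinophil arrays, 7.41 and 8.73 on neutrophil arrays, and 8.02 and 7.89 on macrophage arrays. The eosinophil arrays were the lowest, and neutrophil and macrophage arrays overlapped. Gusb was lower on eosinophil than on macrophage arrays, with a difference of -1.87 ± 0.52 (SE, adjusted p = 0.0412). The call ended without T2M array 2 or 3, either eosinophil array or either macrophage array (adjusted p = 0.052 to 0.207). The 4 other enzymes of this group, the heparan sulfate enzymes Naglu, Sgsh and Ids and the keratan sulfate sulfatase Galns, passed in no comparison. Ids averaged 8.01 on T2M, 8.42 on eosinophil, 8.70 on neutrophil and 9.62 on macrophage arrays. Naglu averaged 7.01, 7.11, 7.63 and 7.46 in that order, Sgsh 8.38, 7.97, 8.25 and 8.64, and Galns 7.38, 6.94, 7.58 and 7.63.

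**Figure D3:**
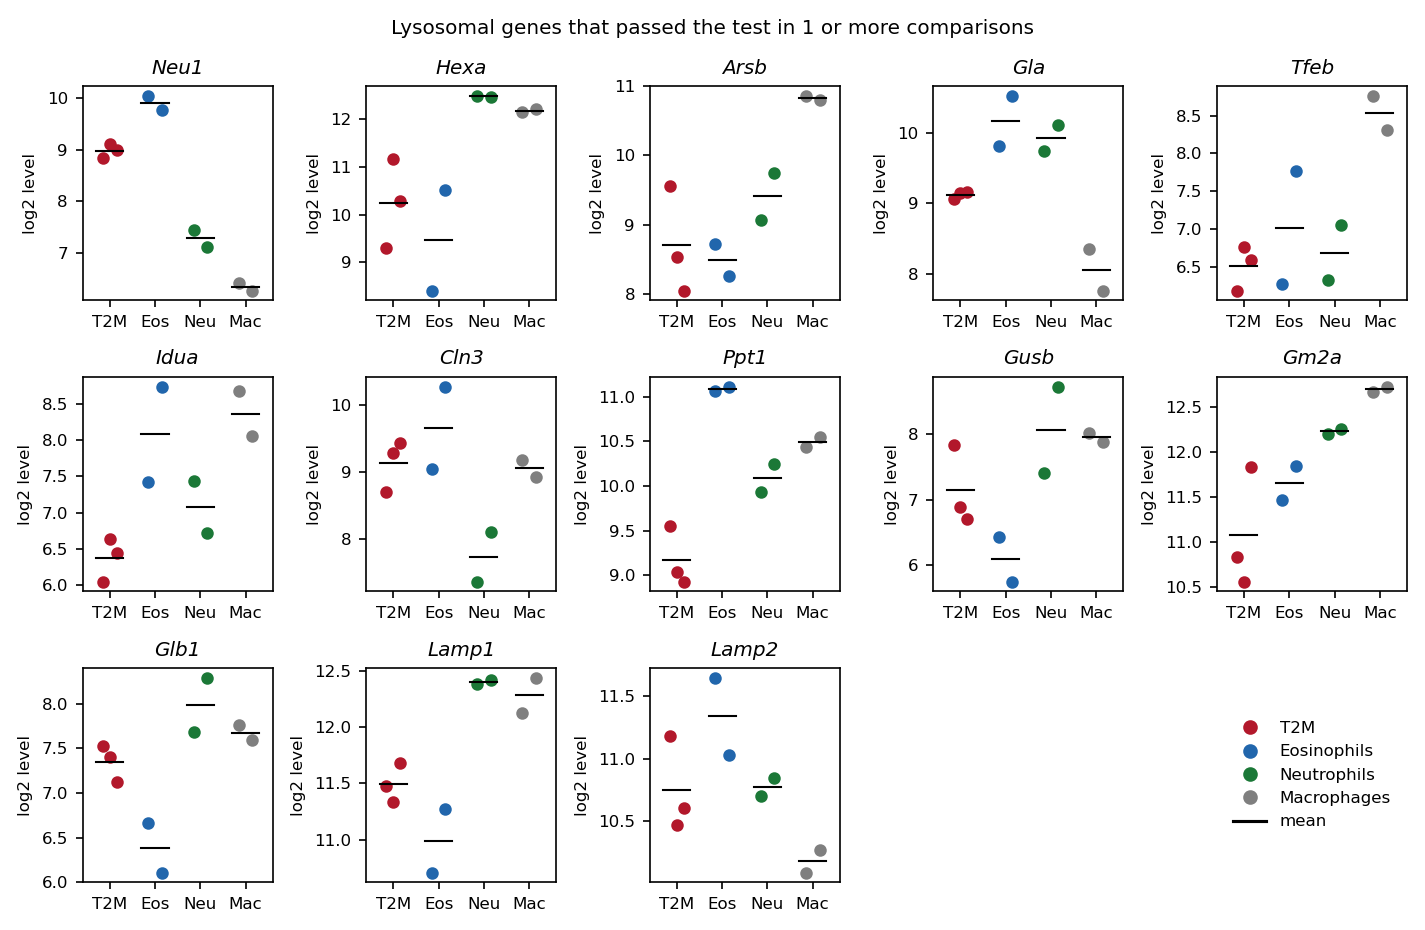
Log2 level on each array for the 13 lysosomal genes called in at least 1 comparison, with 1 point per array (3 T2M, 2 of each other label) and a bar at the mean. Neu1 shows 4 separate levels, from 9.91 on eosinophil arrays to 6.34 on macrophage arrays, and Hexa shows a wide spread on T2M and eosinophil arrays.

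Of 7 membrane protein genes, Lamp1, Lamp2 and Cln3 were called, each in comparisons of eosinophil arrays. Among all genes, 26.8% were called in at least 1 comparison. The F test called 1 of the 7 (14.3%, against 17.8% of all genes). Lamp1 and Lamp2 encode the abundant sugar-coated proteins that line the lysosomal membrane. Lamp1 stood at 11.48, 11.33 and 11.68 on T2M arrays, 10.71 and 11.28 on eosinophil arrays, 12.38 and 12.42 on neutrophil arrays, and 12.12 and 12.44 on macrophage arrays. Lamp2 stood at 11.18, 10.47 and 10.60 on T2M arrays, 11.65 and 11.03 on eosinophil arrays, 10.70 and 10.85 on neutrophil arrays, and 10.08 and 10.26 on macrophage arrays. The eosinophil arrays were thus the lowest for Lamp1, and for Lamp2 they had the highest mean but overlapped the T2M arrays. Eosinophil minus macrophage arrays differed by -1.29 ± 0.27 (SE) for Lamp1 (adjusted p = 0.0155) and by 1.17 ± 0.32 for Lamp2 (adjusted p = 0.0413). Lamp1 also differed between eosinophil and neutrophil arrays, by -1.41 ± 0.27 (adjusted p = 0.020).

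Without eosinophil array 1 the Lamp1 differences no longer passed (adjusted p = 0.0862 against macrophage and 0.0979 against neutrophil arrays), and the first call also ended without either macrophage array (0.0773 and 0.131). The Lamp2 call ended without T2M array 2 or 3, eosinophil array 1 or either macrophage array (adjusted p = 0.0512 to 0.234). Between T2M and macrophage arrays, Lamp1 differed by -0.78 (adjusted p = 0.0647) and Lamp2 by 0.58, and neither passed.

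Cln3 encodes a membrane protein mutated in human juvenile neuronal ceroid lipofuscinosis. It stood at 8.70, 9.28 and 9.44 on T2M arrays, 9.04 and 10.28 on eosinophil arrays, 7.36 and 8.11 on neutrophil arrays, and 9.19 and 8.93 on macrophage arrays. The neutrophil arrays were below all others. Cln3 was 1.93 ± 0.46 (SE) higher on eosinophil than on neutrophil arrays (adjusted p = 0.0397). This call ended without T2M array 2 or 3, eosinophil array 2, neutrophil array 1 or either macrophage array (adjusted p = 0.0589 to 0.174). The same gene was 1.41 higher on T2M than on neutrophil arrays in the mean, which did not pass.

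Scarb2, Npc1, Mcoln1 and Ctns passed in no comparison. Scarb2, a membrane receptor that carries glucocerebrosidase to lysosomes, averaged 9.16 on T2M, 9.92 on eosinophil, 10.00 on neutrophil and 9.78 on macrophage arrays. Npc1, the cholesterol exporter, averaged 9.02, 9.14, 9.72 and 8.90 in that order. Mcoln1, a calcium-releasing cation channel, averaged 7.98, 8.28, 7.75 and 8.20. Ctns, the cystine exporter, averaged 6.05, 6.19, 7.07 and 7.20, and its difference between T2M and macrophage arrays was -1.16 (adjusted p = 0.0562).

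Ppt1, which removes fatty acids from proteins, was the gene called lower on T2M arrays in 2 comparisons. It stood at 9.55, 9.04 and 8.93 on T2M arrays, 11.06 and 11.11 on eosinophil arrays, 9.93 and 10.24 on neutrophil arrays, and 10.44 and 10.55 on macrophage arrays. The T2M arrays were below all others and the eosinophil arrays above all others. The difference was -1.92 ± 0.25 (SE) for T2M minus eosinophil arrays (adjusted p = 0.00699) and -1.32 ± 0.25 for T2M minus macrophage arrays (adjusted p = 0.0119). The first call ended without eosinophil array 2 (adjusted p = 0.0583) and with the probe set of largest variance (-0.03, adjusted p = 0.99), and the second without either macrophage array (0.111 and 0.113). Tpp1, a peptidase that cuts tripeptides from protein ends, averaged 10.63 on T2M, 10.96 on eosinophil, 10.98 on neutrophil and 9.58 on macrophage arrays. It was not called, with an adjusted p of 0.0545 for eosinophil and 0.089 for T2M minus macrophage arrays.

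Of the regulators, Tfeb encodes the transcription factor that drives many lysosomal genes. It stood at 6.18, 6.76 and 6.59 on T2M arrays, 6.26 and 7.77 on eosinophil arrays, 6.33 and 7.05 on neutrophil arrays, and 8.76 and 8.31 on macrophage arrays. The macrophage arrays were above all others, and the other 3 labels overlapped. Tfeb was lower on T2M than on macrophage arrays, with a difference of -2.03 ± 0.45 (SE, adjusted p = 0.0205), a call that ended without T2M array 3 (0.0528) or either macrophage array (0.185 and 0.0987). Grn, the precursor of the granulins, averaged 13.31 on T2M, 12.26 on eosinophil, 12.90 on neutrophil and 12.16 on macrophage arrays. Its difference of 1.15 between T2M and macrophage arrays had an adjusted p of 0.0538, the lowest among the 18 genes that were never called.

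**Figure D4:**
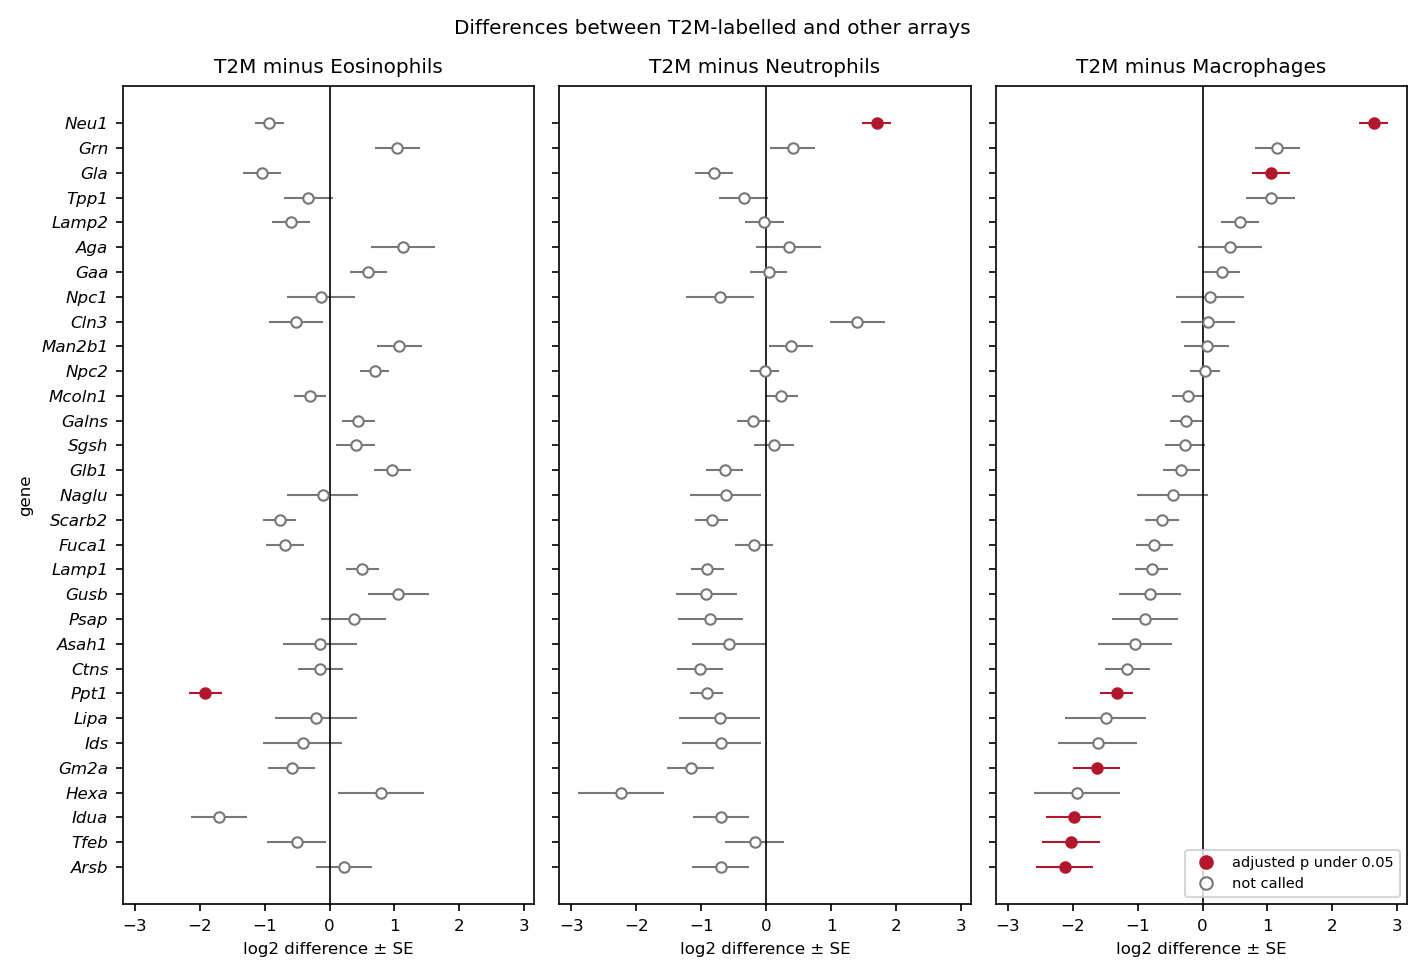
Log2 difference between T2M arrays and the arrays of each other label for all 31 genes (points, with the standard error as bars), in the order of T2M minus Macrophages, with filled points for an adjusted p under 0.05. Neu1 stands at the upper end against macrophage arrays at 2.64 and Arsb at the lower end at -2.12.

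T2M array 1 differed from the other T2M arrays for several of these genes. It lay more than 1 log2 unit above both others for 7 genes, or 22.6% (Npc1, Asah1, Lipa, Naglu, Arsb, Ids and Tpp1), against 6.52% of all genes, and below both for Psap, against 2.82% of all genes. T2M array 2 was set apart in this way for 0 of the 31 genes (0.786% of all genes above, 1.56% below), and T2M array 3 for Gm2a alone (0.605% above, 1.13% below). The actin 3′ minus 5′ difference of 0.61 was that of T2M array 1, and its part in these values was not tested. Among T2M arrays the median SD was 0.386 for the 31 genes and 0.292 for all genes, and among macrophage arrays it was 0.111 and 0.104.

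Other probe sets of the same genes gave a check on the choice of probe set. Of the 23 calls, 16 were of genes with more probe sets, and 30 of the 34 other probe sets had a difference of the same sign, some of them near 0. A difference of the same sign and at least 0.5 times that of the probe set used was found for 15 of the 34. For Neu1, the other 2 probe sets gave smaller differences, of 0.20 and 0.62 for T2M minus macrophage arrays, where the probe set used gave 2.64. One of them was near 0 in eosinophil minus neutrophil (0.00066, against 2.63 used) and eosinophil minus macrophage arrays (0.0083, against 3.57 used), and the other gave 2.02 and 1.83. With the mean of its probe sets, Neu1 in T2M minus neutrophil arrays was 0.90 and no longer passed (adjusted p = 0.231). For Ppt1, 1 of 4 other probe sets was 2.08 higher on T2M than on macrophage arrays, opposite to the probe set used at -1.32, and the other 3 were lower. For Arsb, 1 of 2 other probe sets was 0.46 higher, and for Gla, 1 of 2 was at -0.03. The 2 other probe sets of Gm2a gave -0.65 and -4.09, of the same sign as the probe set used. In eosinophil minus macrophage arrays, the 2 other probe sets of Gla gave 0.57 and 0.72, where the probe set used gave 2.10. In neutrophil minus macrophage arrays they gave 0.16 and 0.36, where the probe set used gave 1.86.

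**Figure D5:**
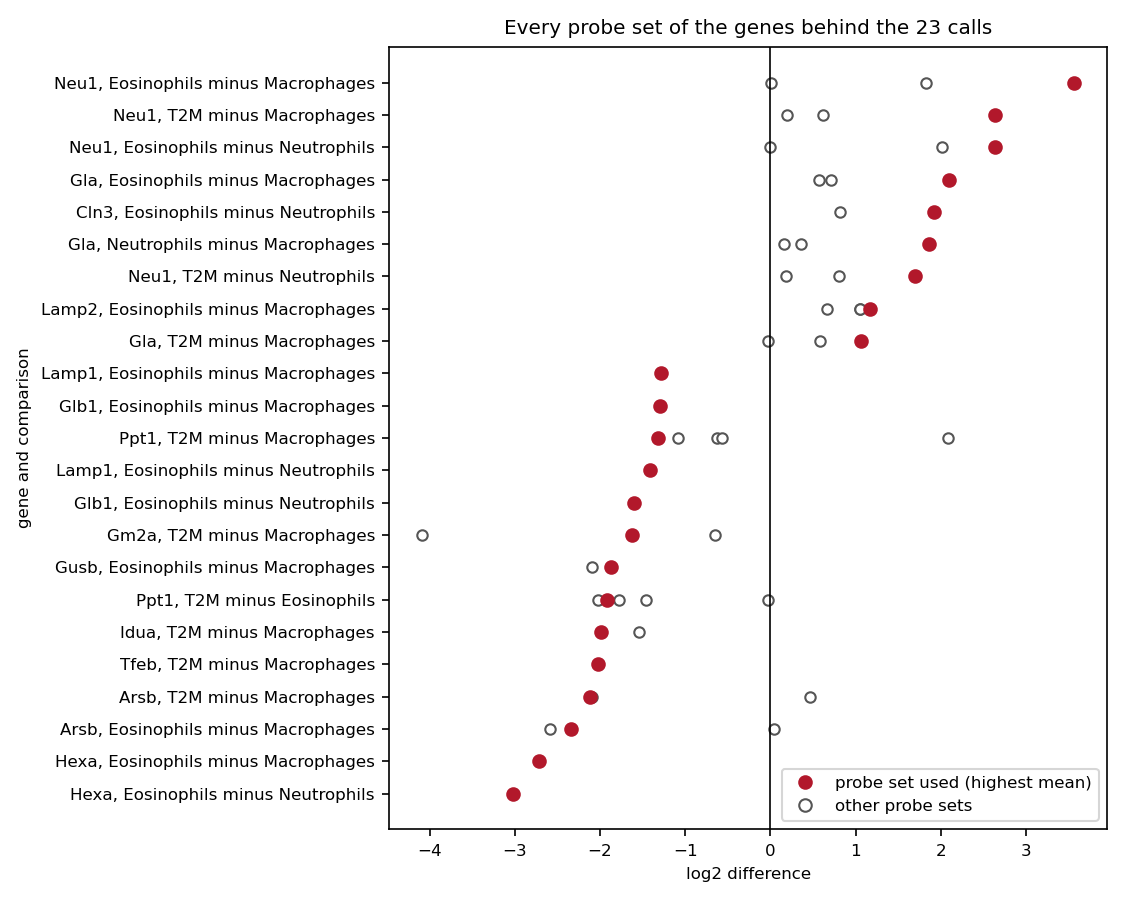
Log2 difference of every probe set of the genes behind the 23 calls, with the probe set used filled and others open. For Ppt1 in T2M minus Macrophages an open point stands at 2.08, on the other side of 0 from the filled one at -1.32.

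Other genes of the lysosome were listed by function, and 54 of 61 were measured. Between T2M and macrophage arrays, 7 were higher (13.0%, against 6.53% of all genes) and 7 lower (13.0%, against 10.6%). Proton pump subunits, which acidify the lysosome, had 3 of 14 genes called higher and 0 lower in limma. Their differences were split into 7 above and 7 below 0, with a median of 0.10, and 3 were lower at an unadjusted p under 0.05. Of all 18193 genes, 7650 were below 0 and 3359 were lower at that unadjusted p. Among the 3 called, Atp6v0b turned to -2.73 with the probe set of largest variance. Other hydrolases had 0 of 11 higher and 5 lower, with a median of -1.29. The pump subunit gene Atp6v0d2 averaged 9.98 on T2M arrays, against 4.71 on macrophage arrays, a difference of 5.27 ± 0.94 (SE, adjusted p = 0.00925), and T2M array 1 stood at 11.92 and the other T2M arrays at 8.75 and 9.27. Slc11a1, a metal transporter of phagosomes, was 2.52 ± 0.28 higher (adjusted p = 0.00138), Rragd, a nutrient-sensing GTPase, 2.17 ± 0.52 higher (adjusted p = 0.0274) and Tfec, a relative of Tfeb, 2.03 ± 0.39 higher (adjusted p = 0.0122). Tfec averaged 9.27 on T2M and 7.24 on macrophage arrays, while Tfeb averaged 6.51 on T2M and 8.54 on macrophage arrays, so these related genes differed in opposite directions. Lower were Cd68 (macrosialin; -2.32 ± 0.36, adjusted p = 0.00559), Dnase2a (a lysosomal nuclease; -1.97 ± 0.55, adjusted p = 0.0449), Lamtor2 (a scaffold of nutrient sensing; -1.95 ± 0.52, adjusted p = 0.0381), and Ctsa. Of these 14 calls, Slc11a1 alone held whichever array was left out (lowest difference 2.47), and the other 13 ended without macrophage array 1 and without macrophage array 2. Without them Atp6v0d2 stood at an adjusted p of 0.093 and 0.0738, Tfec at 0.0786 and 0.117, Rragd at 0.198 and 0.136, and Cd68 at 0.0756 and 0.054.

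Between T2M and eosinophil arrays, 2 of the 54 genes were lower (3.7%, against 2.89% of all genes) and 0 higher (1.57% of all genes). At an unadjusted p under 0.05 in limma, 3 of the 54 were higher, as were 1535 of all 18193 genes. Hgsnat encodes the membrane enzyme that acetylates heparan sulfate before Naglu acts. It stood at 6.76, 7.17 and 6.86 on T2M arrays and at 9.76 and 10.14 on eosinophil arrays, a difference of -3.02 ± 0.23 (SE, adjusted p = 0.00104). This call held whichever array was left out. The pump subunit gene Atp6v0a1 differed by -1.99 ± 0.32 (adjusted p = 0.0138), a call that ended without eosinophil array 2 (0.104). The Atp6v0a1 call also ended with the probe set of largest variance (adjusted p = 0.102) and with only the 2 labels fitted (0.061). Between T2M and neutrophil arrays, 1 gene was higher (1.85%, against 1.25% of all genes) and 2 lower (3.7%, against 1.57%). Atp6v0b, another pump subunit gene, was 1.09 ± 0.20 higher (adjusted p = 0.0337), and Cd68 (-1.89 ± 0.36, adjusted p = 0.0386) and Hgsnat (-1.85 ± 0.23, adjusted p = 0.0104) were lower. The Hgsnat call held whichever array was left out, while those of Cd68 and Atp6v0b ended without T2M array 2 or 3 or either macrophage array, among others (adjusted p = 0.052 to 0.118 and 0.0569 to 0.114). The Hgsnat call against neutrophil arrays ended with array weights (adjusted p = 0.0592), only the 2 labels fitted (0.0793) and the replicate number as a block (0.0678). For Atp6v0b the direction turned with the probe set of largest variance, to -1.94.

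Between eosinophil and macrophage arrays, 9 of the 54 genes were higher (16.7%, against 5.89% of all genes) and 5 lower (9.26%, against 11.5%). Higher were Igf2r, the receptor that sorts new hydrolases to lysosomes (2.97 ± 0.46 SE, adjusted p = 0.00416), Rragd (2.50 ± 0.57, adjusted p = 0.0208), Mitf, a further relative of Tfeb (2.49 ± 0.63, adjusted p = 0.0292), and Atp6v0a1 (2.45 ± 0.35, adjusted p = 0.00286). Lower were Sumf1, which activates sulfatases (-2.21 ± 0.53, adjusted p = 0.0245), the acid sphingomyelinase gene Smpd1 (-1.93 ± 0.51, adjusted p = 0.0353), Ctsa, and Atp13a2, a polyamine exporter of the lysosomal membrane (-1.71 ± 0.32, adjusted p = 0.00879). Those of Igf2r and Atp6v0a1 held whichever array was left out, and the others named ended without macrophage array 1 and without macrophage array 2 (for Rragd at an adjusted p of 0.138 and 0.0956, for Mitf at 0.143 and 0.144). The Atp6v0a1 call against macrophage arrays ended with the probe set of largest variance (adjusted p = 0.113). Between eosinophil and neutrophil arrays, 1 gene was called in each direction (1.85%, against 3.55% of all genes higher and 4.33% lower). Hgsnat was higher by 1.17 ± 0.25 (adjusted p = 0.0273) and Nagpa, which completes the sorting tag of hydrolases, was lower (-1.41 ± 0.29, adjusted p = 0.0249), and both calls ended without either eosinophil or either macrophage array, among others. Between neutrophil and macrophage arrays, Tfec was higher by 3.08 ± 0.43 (adjusted p = 0.00932; 0.0699 and 0.122 without macrophage arrays 1 and 2), and 0 genes were lower, with 2 at an unadjusted p under 0.05 in limma. At that unadjusted p, 1582 of all 18193 genes were lower. The comparisons of labels share arrays with one another, so their values are set side by side only.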

How the data were processed

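RNA of 4 sorted lung cell populations was measured on 9 Affymetrix arrays. The deposited table gives log2 expression for each probe set in every array. The submitters' processing notes name RMA, affy and limma for making it. Their versions and settings are not given in the sources used here. Fold values were taken as powers of 2, as RMA output allows.

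Of 45101 probe sets, 64 controls were left out of the tests, as were probe sets with several gene symbols (932) or none (9160). Of 34945 with 1 symbol, 34741 matched a RefSeq gene ID, which changed 0 symbols. Each of 18193 genes was given by its probe set with the highest mean. Levels of different genes were not compared, since no probe set's level can be set against another's. Labels were compared by a two-sided test (limma 3.58.1, R 4.3.3; lmFit with a mean per label, then eBayes) over all 9 arrays, with Benjamini-Hochberg adjustment over all genes for each of 6 comparisons and the F test, and a threshold of 0.05. Residual degrees of freedom were 5, with 3.26 added by the prior. The number of arrays limits the precision: the median SE was 0.308 for T2M comparisons and 0.337 for the others.

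The 31 genes and all lists were chosen with earlier results of these data known. Values on every array are given for the 12 genes with the largest called differences plus Tfeb, Lamp1 and Lamp2, and of other lysosomal genes up to 4 called per comparison and direction. Of 76 cell type markers, 67 were measured. Promoter windows came from RefSeq tables (GRCm38.p6). Alternatives changed the probe set, the filter on dim genes, the scaling, the moderation, array weights, the labels fitted together, a block for replicate number, the macrophage arrays averaged, the arrays with a high actin 3′ minus 5′ difference, and each array left out. A fit without the eosinophil arrays was chosen after seeing the data. Leaving out an array of a label outside a comparison left the difference itself unchanged. It altered the adjusted p alone, through the spread shared by all arrays. Figures were drawn with matplotlib 3.10.9.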

Additional observations from a re-analysis of the deposited data

How the results depend on the processing

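Of the 23 calls of lysosomal genes, 4 held under every alternative tried and every array left out: Neu1 in T2M minus macrophage, eosinophil minus neutrophil and eosinophil minus macrophage arrays, and Gla in eosinophil minus macrophage arrays. For these 4 calls no alternative set aside the probe set used, and the other probe sets of Neu1 and Gla gave smaller differences. Among the 23, 1 reversed: Ppt1 in T2M minus macrophage arrays, with the probe set of largest variance, was 2.08 (adjusted p = 0.0084; 0.000151 to 0.357 over its alternatives), a change made by the choice of probe set. Of 36 calls of other lysosomal genes, 7 held whichever array was left out and 5 under every alternative too. Atp6v0b turned direction in 5 cases: with the probe set of largest variance it was -1.94 for T2M minus neutrophil, -2.73 for T2M minus macrophage and -0.63 for eosinophil minus macrophage arrays, and with the mean of all probe sets -0.30 and -0.52 for the first 2 of these. The number of genes called otherwise moved as follows, and the cause was not tested. With the probe set of largest variance it was 0 for T2M minus eosinophil, 5 for T2M minus neutrophil, 14 for T2M minus macrophage and 9 for eosinophil minus neutrophil arrays, and 15 in the F test. With the mean of all probe sets it was 2 for T2M minus eosinophil, 13 for T2M minus macrophage, 8 for eosinophil minus neutrophil, 13 for eosinophil minus macrophage and 0 for neutrophil minus macrophage arrays, and 15 in the F test. Array weights gave 3, 0, 18, 1, 17 and 0 calls in the 6 comparisons in the order above (T2M minus eosinophil, neutrophil and macrophage, eosinophil minus neutrophil and macrophage, neutrophil minus macrophage) and 20 in the F test. The weights were 4 for each macrophage array, the pair that correlated at 0.995, and 0.333 for each neutrophil array. They were 0.807 for each eosinophil array and 0.427, 1.12 and 1.81 for T2M arrays 1, 2 and 3. Fits on only the labels compared gave 0 for T2M minus neutrophil, 11 for T2M minus macrophage, 1 for eosinophil minus neutrophil, 14 for eosinophil minus macrophage and 0 for neutrophil minus macrophage arrays. Genes above the median level gave 2, and a common median 3, for T2M minus eosinophil arrays. Averaging the macrophage arrays gave 1 for T2M minus macrophage, 3 for eosinophil minus neutrophil, 2 for eosinophil minus macrophage and 0 for neutrophil minus macrophage arrays, and 2 in the F test. Leaving out both arrays with a high actin difference gave 2 for T2M minus neutrophil and 3 for neutrophil minus macrophage arrays. The fit without the eosinophil arrays, chosen after seeing the data, gave 2 for neutrophil minus macrophage arrays.

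With each array left out in turn, the counts ran from 0 to 3 for T2M minus eosinophil, 0 to 2 for T2M minus neutrophil, 1 to 9 for T2M minus macrophage, 3 to 7 for eosinophil minus neutrophil, 2 to 11 for eosinophil minus macrophage and 0 to 3 for neutrophil minus macrophage arrays, and from 2 to 11 in the F test. Without either macrophage array, T2M minus macrophage arrays had 1 call (Neu1) and eosinophil minus macrophage arrays had 2 (Neu1 and Gla). The replicate number as a block gave 0 calls for T2M minus neutrophil, 4 for T2M minus macrophage, 5 for eosinophil minus macrophage and 0 for neutrophil minus macrophage arrays. Whether the numbers pair the arrays cannot be told from these values. Of 12 same-number pairs, 2 correlated over 0.1 in their deviations, with a range of -0.18 to 0.498. Where both labels have 2 arrays, their 2 pairs give the same value, so the 12 pairs are not 12 separate checks. The 2 pairs over 0.1 were the T2M and eosinophil pairs (0.498 and 0.437), where the block left the count at 1. The arrays numbered 1 of these labels are those with the high actin differences. A common median moved each difference by -0.146 for T2M minus eosinophil, 0.155 for eosinophil minus neutrophil and 0.0954 for eosinophil minus macrophage arrays.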
